A study of Rattus norvegicus with 6 samples.

Results

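The vessel-wall microRNAs (miRNAs) described here are 8 mature arms cut from 5 hairpins. They were taken by name from a table of 763 rat miRNAs measured in exosomes (vesicles shed by cells) isolated from serum. The endothelial members are both arms of miR-126a and the 3p arms of miR-221 and miR-222. The smooth-muscle members are both arms of miR-143 and of miR-145. All 8 were found, and all 8 passed the abundance filter that 226 miRNAs passed. The IPC group held 3 samples from rats given ischemic preconditioning, 3 cycles of 5 min of closure and 5 min of reopening of the left anterior descending coronary artery. The other 3 samples, the controls, came from blood drawn alike but without preconditioning, and no sham operation is described for them. Every animal was an adult male Sprague-Dawley rat aged 9 to 10 weeks and under pentobarbital, and serum of the left ventricle was the source in both groups. Whether each sample came from a rat of its own is not stated, so p-values reflect only sample-to-sample spread, possibly technical.

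miR-126a is processed from the transcript of Egfl7, a gene active in endothelial cells, and its 3p arm is known for sustaining vascular endothelial growth factor signalling by repressing inhibitors of that pathway, as shown in mouse and zebrafish. miR-221 and miR-222 are made together in endothelium and in smooth muscle, where they are known for repressing the receptor Kit (human endothelial cells) and the cell cycle inhibitor p27 (rat smooth muscle cells). miR-143 and miR-145 are made together in vascular smooth muscle and are known for keeping those cells in their contractile state, as shown in mouse. A hairpin gives a 5p and a 3p arm, of which usually a single arm is loaded into Argonaute and kept, and pairing to targets rests mainly on the seed, bases 2 to 8. Blood cells carry some of these miRNAs too, so the names stand for known sites of expression and not for a source shown here.

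The 8 mature sequences are shown because the grouping by seed and the comparison of arms rest on them. They are from RefSeq on build GRCr8, which differs from the build rn6 named in the submitters' processing notes, and are written 5′ to 3′ with the seed in capitals and the prefix rno for rat.
rno-miR-126a-3p: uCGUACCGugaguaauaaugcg
rno-miR-126a-5p: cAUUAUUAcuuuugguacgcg
rno-miR-221-3p: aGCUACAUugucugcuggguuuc
rno-miR-222-3p: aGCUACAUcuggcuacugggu
rno-miR-143-3p: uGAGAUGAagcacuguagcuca
rno-miR-143-5p: gGUGCAGUgcugcaucucugg
rno-miR-145-5p: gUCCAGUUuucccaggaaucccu
rno-miR-145-3p: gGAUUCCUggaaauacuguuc
They are 21 to 23 bases long, so counts were compared between arms without scaling to length. miR-221-3p and miR-222-3p share a seed, and no other pair of members does. These 2 are identical over their first 8 bases and at 11 of 21 aligned positions in all. Their division into separate rows therefore rests on the bases after the seed. No further rat miRNA in the RefSeq table carries the seed of any member.

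On GRCr8 the arms of miR-126a lie on the plus strand at chr3:29813182-29813202 (5p) and chr3:29813219-29813240 (3p), within the span of Egfl7. The miR-222 and miR-221 hairpins lie on the plus strand at chrX:6022621-6022723 and chrX:6023182-6023290, with 458 bases between them and within the spans of 2 long noncoding RNA genes. The miR-145 and miR-143 hairpins lie on the minus strand at chr18:57369983-57370070 and chr18:57371349-57371453, with 1278 bases between them and within the span of Carmn, a long noncoding RNA gene of smooth and cardiac muscle. The RefSeq table does not say whether these positions are exonic or intronic. miR-126b, annotated from the strand opposite to miR-126a and complementary to miR-126a-5p over 17 bases, had 0 counts in all 6 libraries.

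Values are the authors' deposited normalised counts, on a library size common to all samples, beside whole counts recovered from them. Recovered counts summed to between 319285 and 762927 in the IPC libraries and between 111048 and 152343 in the control libraries, and the mean total was 4.44 times as high after IPC. Control replicate 2 resembled the IPC libraries, with Spearman correlations over the 226 tested miRNAs of 0.88 to 0.93 with them and of 0.69 and 0.77 with the other controls. Control replicate 1 had 0.88, 0.85 and 0.76 with IPC replicates 1, 2 and 3, so the likeness was partly shared, and 0.86 with control replicate 3. Control replicate 3 had 0.78, 0.71 and 0.62 with IPC replicates 1, 2 and 3. Control replicate 2 also had the most counts of the controls (152343), and the part of depth was not tested. Marker lists of other sources took a share of library counts whose part in the members' levels was not tested. The ranges were 11.1% to 16.0% after IPC and 12.9% to 15.7% in controls for 5 of 6 listed platelet miRNAs. For 6 red-cell miRNAs they were 4.94% to 5.84% in IPC libraries and 4.12% to 7.80% in control libraries, and for 7 leukocyte miRNAs 1.89% to 3.06% in IPC libraries and 0.750% to 2.28% in control libraries. The 8 heart and skeletal muscle miRNAs took 1.43%, 8.46% and 4.25% in IPC replicates 1, 2 and 3, against 0.285%, 1.83% and 0.217% in control replicates 1, 2 and 3. The groups overlapped for these only through IPC replicate 1 and control replicate 2. The 7 that passed the abundance filter had log2 fold changes with a median of 2.83. All 7 were higher in IPC at an unadjusted p below 0.05 in limma (smallest adjusted p = 0.212), against 8.85% of all 226 tested. miR-133a-5p, with 60, 140 and 20 counts in IPC and 0, 1 and 2 in control replicates 1, 2 and 3, passed the filter through the IPC libraries alone. Both arms of miR-133a are among the 7, so these are not 7 separate results. The list was chosen with earlier results known, so this is a description. Mesenchymal miRNAs (4, of which miR-214-5p had 0 counts) took 0.0594% to 0.167% in IPC libraries and 0.0216% to 0.179% in control libraries. The 4 hepatocyte miRNAs took 0.703% to 1.47% in IPC libraries and 1.04% to 2.29% in control libraries.

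The comparison of IPC with control exosomes asks which circulating miRNAs differ after preconditioning. None of the 8 vessel-wall arms passed the test, and for all 8 the IPC and control values overlapped. miR-143-3p of smooth muscle was by far the most abundant member in every library, and miR-126a-3p of endothelium came next in 5 of 6 libraries. Log2 fold changes ran from -1.04 for miR-143-5p to 0.87 for miR-145-5p. In limma 0 of 8 passed an adjusted p of 0.05, where 0% of all 226 did (smallest adjusted p 0.666 among the 8 and 0.212 among all). At an unadjusted p below 0.05, 0 of 8 passed, against 10.6% of all tested (8.85% higher and 1.77% lower after IPC), and limma-voom on the recovered counts also gave 0 by either measure. Groups without overlap were found for 0 of 8 members and for 13.7% of all tested (12.4% higher and 1.33% lower after IPC). Leaving out any other single library gave 0 calls in either direction by the adjusted p. Without control replicate 2, which resembled the IPC libraries, 29 of 226 miRNAs were called higher and 9 lower, and 0 of 8 members were. Removing a control that resembles the IPC libraries widens the contrast by itself, so these calls are no separate evidence of a difference. The member log2 fold changes without control replicate 2 were 0.57 for miR-126a-3p, 0.92 for miR-126a-5p, -0.18 for miR-221-3p and -0.69 for miR-222-3p. Those of smooth muscle were 0.76 for miR-143-3p, -1.66 for miR-143-5p, 0.88 for miR-145-5p and 0.23 for miR-145-3p. In these bulk exosome samples, fewer vesicles from a cell type and less of a miRNA per vesicle cannot be told apart.

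**Figure D1:**
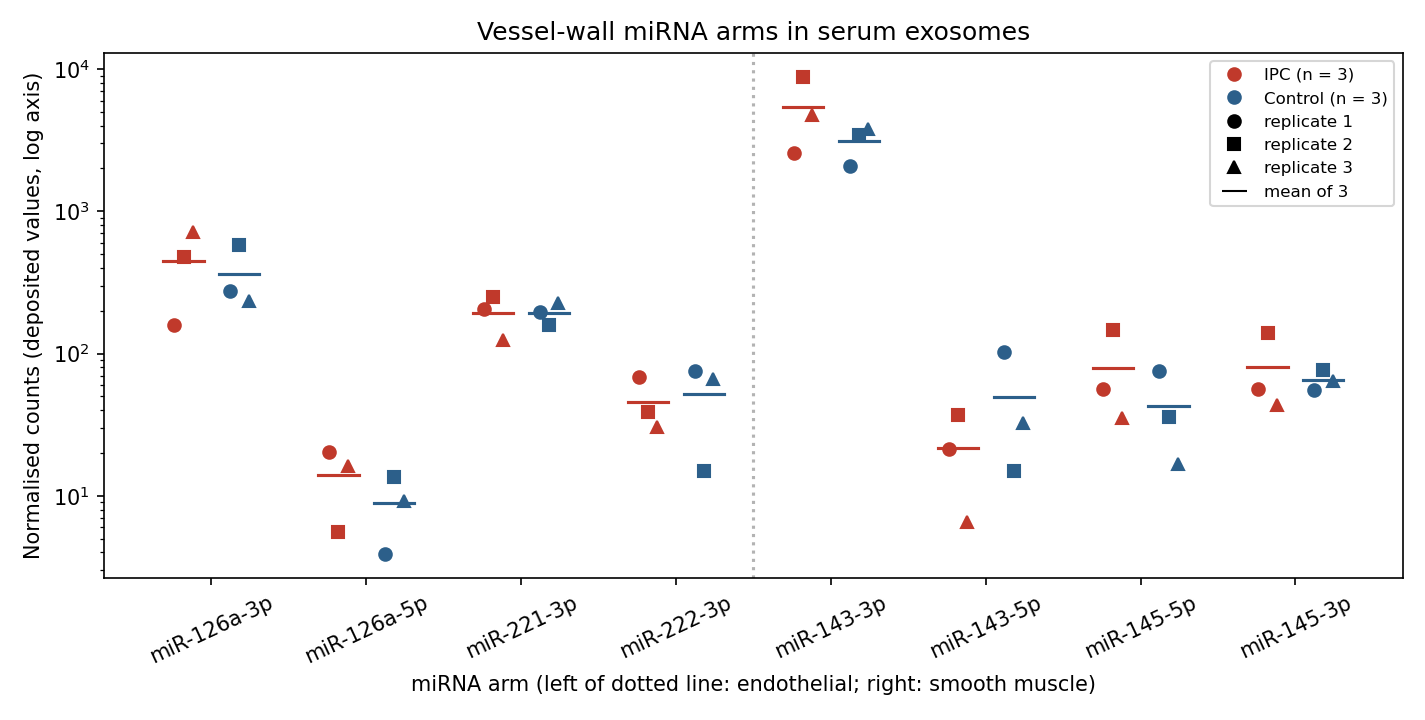
Normalised counts of each of the 8 arms on a log axis, by sample, with IPC left of control and a bar at the mean of 3. miR-143-3p lies above the other 7 arms in every library, at 2581 to 8815 after IPC and 2088 to 3774 in controls, and the IPC and control points overlap for all 8 arms.

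Among the endothelial members, miR-126a-3p, the arm that sustains growth factor signalling, had 159, 476 and 714 normalised counts in the IPC libraries (replicates 1, 2 and 3), against 276, 579 and 236 in control replicates 1, 2 and 3. The highest 3 libraries were IPC replicates 3 and 2 and control replicate 2, so high and low libraries occurred in both groups. Its mean was 450 ± 278 in IPC exosomes and 363 ± 188 in control exosomes (SD, n = 3 each), and the log2 fold change was 0.17 (SE 0.76; limma, adjusted p = 0.956). The 95% interval ran from -1.51 to 1.85, that is from 0.352-fold to 3.61-fold. The sign turned when IPC replicate 3 (-0.28) or control replicate 3 (-0.079) was left out, and the value was 0.80 without IPC replicate 1. It also turned under median-of-ratios (-0.076) and upper-quartile scaling (-0.096). miR-126a-3p took 0.176% ± 0.123 of library counts after IPC and 0.156% ± 0.131 in control exosomes (exact permutation test, two-sided, p = 1.0).

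miR-126a-5p, the opposite arm, rested on few reads, with 54, 14 and 22 counts in the IPC libraries (replicates 1, 2 and 3), against 1, 11 and 4 in control replicates 1, 2 and 3. The single count in control replicate 1 has an exact 95% Poisson interval of 0.0253 to 5.57 counts, which covers counting error only. In normalised counts it was at 20.3, 5.57 and 16.3 after IPC and at 3.90, 13.5 and 9.23 in controls, so IPC replicate 2 lay below 2 of the controls. A log2 fold change of 0.58 was found (SE 0.84; limma, adjusted p = 0.78), with an interval of -1.26 to 2.42. With control replicate 1, the library with 1 count, left out it was 0.14, and without IPC replicate 2 it was 1.09. miR-126a-5p was the least abundant member by mean, at place 214 of 226 tested, and miR-126a-3p was at place 55.

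miR-221-3p, which represses Kit and p27, showed the most even levels of the endothelial members. It had 206, 250 and 125 normalised counts in the IPC libraries (replicates 1, 2 and 3), against 196, 160 and 226 in control replicates 1, 2 and 3. The lowest and the highest library were both IPC libraries, so the controls lay inside the IPC range. The means were 194 ± 63.1 after IPC and 194 ± 33.2 in control exosomes (SD, n = 3 each), with a coefficient of variation of 32.6% in IPC and 17.1% in control libraries. The medians of that coefficient over all tested miRNAs were 43.0% in IPC and 65.4% in control libraries. Its log2 fold change was -0.044 (SE 0.64; limma, adjusted p = 0.998), with an interval of -1.45 to 1.36. A decrease to 0.366-fold and an increase to 2.57-fold both lie within that interval. The sign turned to 0.24 without IPC replicate 3 and to 0.073 without control replicate 3.

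miR-222-3p, the neighbour with the same seed, had 68.8, 38.9 and 30.3 normalised counts in the IPC libraries (replicates 1, 2 and 3), against 75.7, 14.99 and 66.0 in control replicates 1, 2 and 3. Control replicate 2 was the lowest of the 6 libraries and control replicate 1 the highest, and control replicate 3 lay just below IPC replicate 1. The log2 fold change was 0.028 (SE 0.80; limma, adjusted p = 0.998), with an interval of -1.74 to 1.79. It was -0.69 with control replicate 2 left out and -0.30 on leaving out IPC replicate 1, and -0.22 and -0.24 under median-of-ratios and upper-quartile scaling.

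Among the smooth-muscle members, miR-143-3p had 6925, 21028 and 6406 counts in the IPC libraries (replicates 1, 2 and 3), against 683, 2787 and 1653 in control replicates 1, 2 and 3. After normalisation these were 2581, 8815 and 4747 in IPC libraries and 2088, 3449 and 3774 in controls. IPC replicates 2 and 3 lay above all controls, and IPC replicate 1 lay between control replicates 1 and 2. Its mean was 5381 ± 3165 in IPC exosomes and 3104 ± 894 in control exosomes (SD, n = 3 each), and the log2 fold change was 0.66 (SE 0.64; limma, adjusted p = 0.689) with an interval of -0.75 to 2.08. It was 1.11 with IPC replicate 1 left out and 0.22 on leaving out IPC replicate 2. miR-143-3p was at place 16 of 226 tested by mean level, and between places 9 and 21 in the single libraries. It alone gave 72.7% to 89.0% of the counts of the 8 members in a library.

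miR-143-5p, the opposite arm, had 57, 88 and 9 counts in the IPC libraries (replicates 1, 2 and 3), against 34, 12 and 14 in control replicates 1, 2 and 3. In normalised counts it was at 21.2, 37.2 and 6.52 after IPC and at 102, 14.99 and 32.4 in controls. Control replicate 1 was the highest library and IPC replicate 3 the lowest. The log2 fold change of -1.04 (SE 0.92; limma, adjusted p = 0.666) had an interval of -3.05 to 0.98, the widest of the 8. It was -0.32 with control replicate 1 left out, -0.39 on leaving out IPC replicate 3, and -1.66 without control replicate 2.

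miR-145-5p, the arm known for keeping smooth muscle contractile, had 151, 346 and 48 counts in the IPC libraries (replicates 1, 2 and 3), against 25, 29 and 7 in control replicates 1, 2 and 3. Its normalised counts were 56.1, 146 and 35.4 after IPC and 75.0, 35.9 and 16.7 in controls. IPC replicate 2 was the highest library, while IPC replicate 3 lay below control replicates 1 and 2. The means were 79.0 ± 58.5 after IPC and 42.5 ± 29.7 in control exosomes, a log2 fold change of 0.87 (SE 0.81; limma, adjusted p = 0.689) with an interval of -0.90 to 2.64. It was 0.31 with IPC replicate 2 left out, 0.34 on leaving out control replicate 3, and 1.40 without control replicate 1.

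miR-145-3p had 56.1, 140 and 43.6 normalised counts in the IPC libraries (replicates 1, 2 and 3), against 55.5, 76.7 and 64.1 in control replicates 1, 2 and 3. All controls lay inside the IPC range, and the control coefficient of variation of 16.3% was the smallest of the 8 members. The log2 fold change was 0.11 (SE 0.66; limma, adjusted p = 0.956), with an interval of -1.35 to 1.57. It was -0.38 with IPC replicate 2 left out, -0.0010 on leaving out control replicate 1, and -0.13 and -0.15 under median-of-ratios and upper-quartile scaling.

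**Figure D2:**
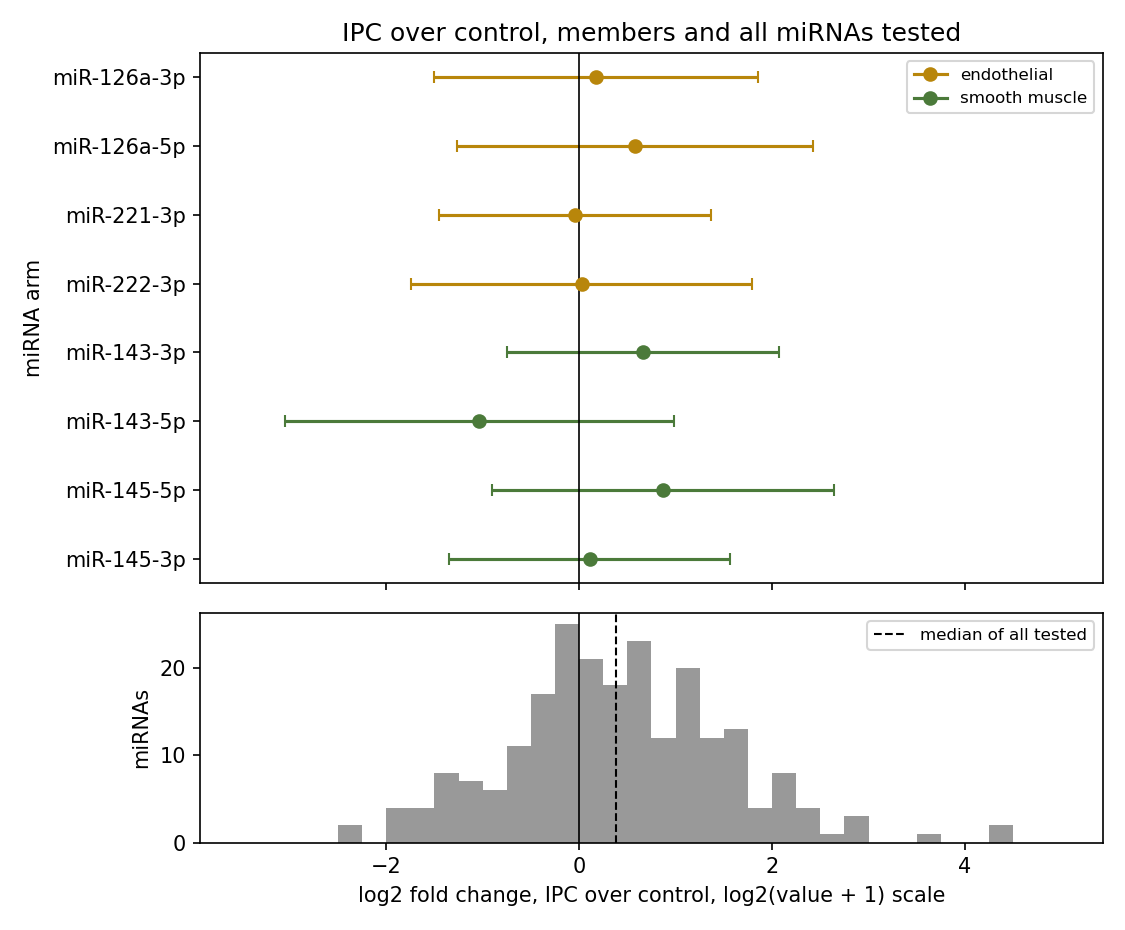
Log2 fold change of IPC over control for each member with its 95% interval from limma (upper panel), above the number of miRNAs at each log2 fold change among all 226 tested (lower panel). All 8 intervals cross 0, and they run from -3.05 at the lowest to 2.64 at the highest.

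Of the 8 log2 fold changes 6 were positive, against 62.8% of all tested, but 3 of those 6, miR-126a-3p, miR-222-3p and miR-145-3p, turned under median-of-ratios and upper-quartile scaling. The median was 0.14 over the 8 members, 0.10 over the endothelial and 0.39 over the smooth-muscle members, and 0.38 over all tested. Median-of-ratios scaling shifted the log2 fold changes of all tested miRNAs by a median of -0.24 and upper-quartile scaling by -0.26. The median of the 8 members was then -0.11 and -0.13, against 0.19 and 0.17 for all tested. In the authors' deposited table the log2 fold changes of the members ran from -1.18 for miR-143-5p to 0.90 for miR-145-5p, and the smallest unadjusted p was 0.204, for miR-143-5p. That table gives miR-222-3p -0.17 and miR-221-3p 0.00081, where limma gave 0.028 and -0.044.

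The order of mean levels was miR-143-3p, miR-126a-3p, miR-221-3p, miR-145-3p, miR-145-5p, miR-222-3p, miR-143-5p and miR-126a-5p. miR-143-3p lay above miR-126a-3p, and miR-221-3p above miR-145-3p, in 6 of 6 libraries. miR-126a-3p lay above miR-221-3p in 5 of 6, the exception being an IPC library. By counts, miR-145-3p and miR-145-5p could not be ranked, the 3p arm being higher in 3 libraries, equal in 1 and lower in 2. The same numbers held for miR-145-5p against miR-222-3p. miR-222-3p had more counts than miR-143-5p in 4 libraries, as many in 1 and fewer in 1, and miR-143-5p lay above miR-126a-5p in 5 of 6. How readily each sequence enters a library was not measured, so this is an order of reads.

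Ratios of members within a library do not depend on scaling between libraries. For smooth muscle against endothelium, miR-143-3p had 16.2, 18.5 and 6.65 times the counts of miR-126a-3p in IPC replicates 1, 2 and 3, against 7.59, 5.96 and 16.0 times in control replicates 1, 2 and 3. Both groups thus held libraries at 16 or above and libraries below 8. The mean log2 ratio was 3.65 ± 0.80 after IPC and 3.16 ± 0.74 in control exosomes (SD, n = 3 each), a difference of 0.49 (exact permutation test, two-sided, p = 0.4; 0.8 adjusted over the 6 ratios tested). With 3 against 3 libraries this test cannot go below 0.1. The difference was 0.20 with control replicate 2 left out, 0.21 on leaving out IPC replicate 2, and 0.95 without IPC replicate 3.

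Summed over members, smooth-muscle counts were 5.98, 11.9 and 5.46 times the endothelial counts in the IPC libraries (replicates 1, 2 and 3), and 4.22, 4.66 and 7.24 times in control replicates 1, 2 and 3. IPC replicate 2 stood highest, and the other IPC libraries lay between control replicates 2 and 3. The mean was 7.77 ± 3.56 after IPC and 5.38 ± 1.63 in control exosomes (SD, n = 3 each), given as a description with no test. Without IPC replicate 2 the difference of 2.39 was 0.34. This sum counts miR-221 and miR-222 as endothelial, though they are made in smooth muscle too. Against the miR-126a arms alone the factors were 15.1, 19.0 and 6.62 in IPC replicates 1, 2 and 3. They were 8.35, 6.03 and 15.9 in control replicates 1, 2 and 3.

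**Figure D3:**
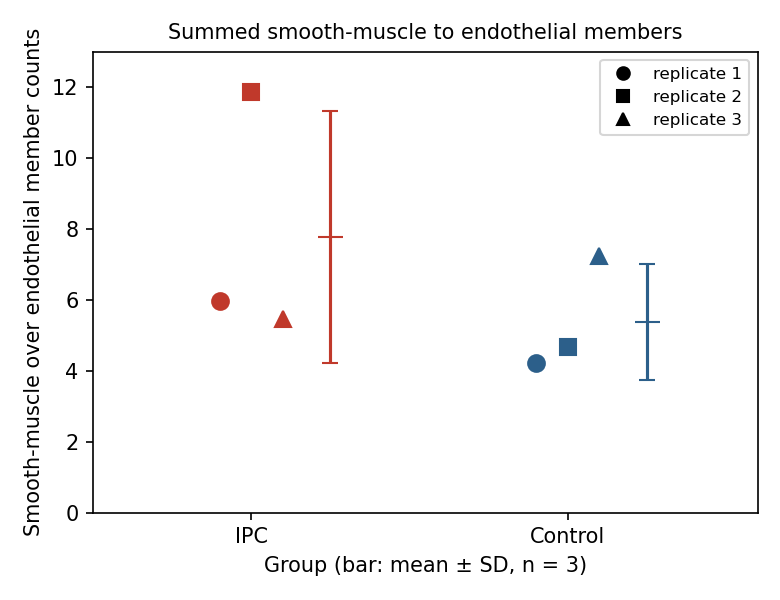
Counts of the 4 smooth-muscle members over counts of the 4 endothelial members in each library, with the mean and SD of each group (n = 3) beside the points. The IPC libraries lie between 5.46 and 11.9 and the control libraries between 4.22 and 7.24.

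The arms of one hairpin are cut from the same precursor, and the share of the less abundant arm differed widely between hairpins. miR-143-5p made up 0.816%, 0.417% and 0.140% of the counts of both miR-143 arms in IPC replicates 1, 2 and 3 (exact 95% binomial intervals 0.619% to 1.06%, 0.334% to 0.513% and 0.0642% to 0.266%). In control replicates 1, 2 and 3 the shares were 4.74%, 0.429% and 0.840% (3.31% to 6.56%, 0.222% to 0.748% and 0.460% to 1.41%). Control replicate 1 stood far above the other 5 libraries, whose shares were all under 1%. The mean log2 ratio of 5p to 3p was -8.07 ± 1.25 after IPC and -6.31 ± 1.80 in controls, a difference of -1.75 (exact permutation test, two-sided, p = 0.2; adjusted 0.8). Without control replicate 1 the difference was -0.75.

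miR-126a-5p made up 11.2%, 1.22% and 2.23% of the counts of both miR-126a arms in IPC replicates 1, 2 and 3 (exact intervals 8.53% to 14.4%, 0.668% to 2.04% and 1.40% to 3.36%). The control shares were 1.10%, 2.30% and 3.74% in replicates 1, 2 and 3 (0.0278% to 5.97%, 1.15% to 4.07% and 1.03% to 9.30%). IPC replicate 1, the library with the lowest miR-126a-3p level, had the highest share of the 5p arm. The difference of mean log2 ratios was 0.37 (exact permutation test, two-sided, p = 0.9; adjusted 1.0), and it was -0.59 without IPC replicate 1.

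miR-145 gave nearly equal counts of both arms, and its hairpin is shown on build GRCr8 (RefSeq), minus strand, with the 5p arm and then the 3p arm in capitals.
miR-145 hairpin: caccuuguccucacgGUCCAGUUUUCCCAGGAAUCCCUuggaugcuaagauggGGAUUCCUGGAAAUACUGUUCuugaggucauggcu
miR-145-3p made up 50.0%, 49.0% and 55.1% of the counts of both arms in IPC replicates 1, 2 and 3 (exact intervals 44.2% to 55.8%, 45.2% to 52.9% and 45.2% to 64.8%). In control replicates 1, 2 and 3 it made up 41.9%, 68.1% and 80.0% (27.0% to 57.9%, 57.5% to 77.5% and 63.1% to 91.6%). The IPC libraries were close to equality, while control replicates 2 and 3 had more of the 3p arm and control replicate 1, with 18 counts against 25, did not differ from equality beyond counting error. The mean log2 ratio of 3p to 5p was 0.080 ± 0.19 after IPC and 0.85 ± 1.21 in controls, a difference of -0.77 (exact permutation test, two-sided, p = 0.4; adjusted 0.8). It was -1.42 with control replicate 1 left out and -0.23 on leaving out control replicate 3, the library with 7 counts of the 5p arm.

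Over all libraries the minor arm held 0.539% of the miR-143 counts, 0.679% of the miR-221 counts, 3.22% of the miR-126a counts and 48.2% of the miR-145 counts. The median over 138 hairpins with at least 100 counts was 1.91%, and 0 of these pairs were more even than miR-145. By the mean over libraries, which weights them equally, the miR-145 value was 42.6% and 1 pair, miR-130b at 51.6%, was above it. miR-221-5p, outside the members, was read 3, 1 and 7 times in IPC replicates 1, 2 and 3 and 0 times in every control. At the IPC rate 2.70 counts would fall in all controls together, under the floor of 3 counts that a count of 0 allows, so no difference was detectable at this depth. miR-222-5p had 0 counts against 384 of miR-222-3p, which allows a share of up to 0.781%.

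**Figure D4:**
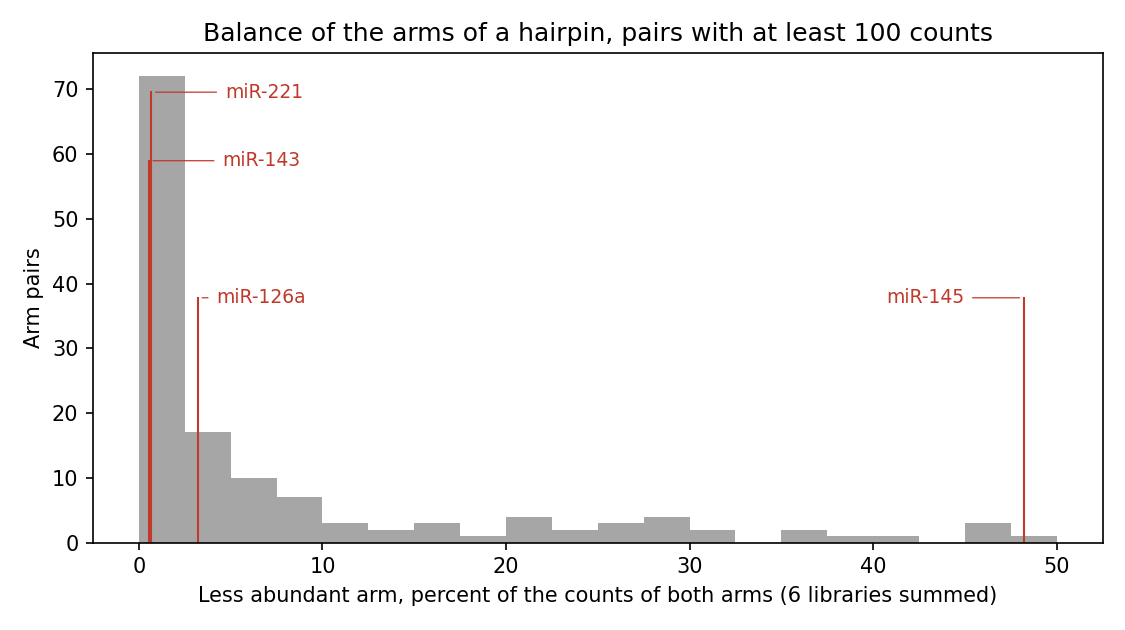
Number of hairpins by the share of the less abundant arm in the counts of both arms, summed over the 6 libraries, for 138 hairpins with at least 100 counts, with 4 of the vessel-wall hairpins marked. miR-143 (0.539%) and miR-221 (0.679%) lie in the lowest bin, miR-126a (3.22%) in the next, and miR-145 (48.2%) at the right end.

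The prevailing arms miR-126a-3p and miR-143-3p begin with U, and miR-221-3p and miR-222-3p with A. Of their opposite arms, miR-126a-5p begins with C, miR-143-5p and miR-222-5p with G, and miR-221-5p with A. miR-221 thus has A at the start of both arms, with a minor share of 0.679%. Both miR-145 arms begin with G. Among the 119 hairpins whose arms are both in the RefSeq table, the prevailing arm began with U or A in 73.9% and the other arm in 55.5%. Both arms began with G or C in 11 of them, miR-145 among these, with a median minor share of 0.636%, and the median of the other 108 was 2.14%. These shares are a description with no test.

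Hairpins of one cluster come from a shared transcript, yet their arms differed in level by large factors. miR-143-3p had 45.9, 60.8 and 133 times the counts of miR-145-5p in IPC replicates 1, 2 and 3, and 27.3, 96.1 and 236 times in control replicates 1, 2 and 3. The spread was wide in both groups, and the log2 ratio of miR-145-5p to miR-143-3p was -6.16 ± 0.79 after IPC and -6.36 ± 1.53 in controls (difference 0.20; exact permutation test, two-sided, p = 1.0). The difference was 1.01 with control replicate 1 left out, -0.51 on leaving out control replicate 3, and -0.12 without IPC replicate 1. miR-221-3p had 3.01, 6.40 and 4.12 times the counts of miR-222-3p in IPC replicates 1, 2 and 3, and 2.56, 10.8 and 3.41 times in control replicates 1, 2 and 3. Replicate 2 of each group had the largest factor. The difference in the log2 ratio of miR-222-3p to miR-221-3p was 0.060 (exact permutation test, two-sided, p = 0.9; adjusted 1.0), and it was -0.55 with control replicate 2 left out and -0.20 on leaving out IPC replicate 1.

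**Figure D5:**
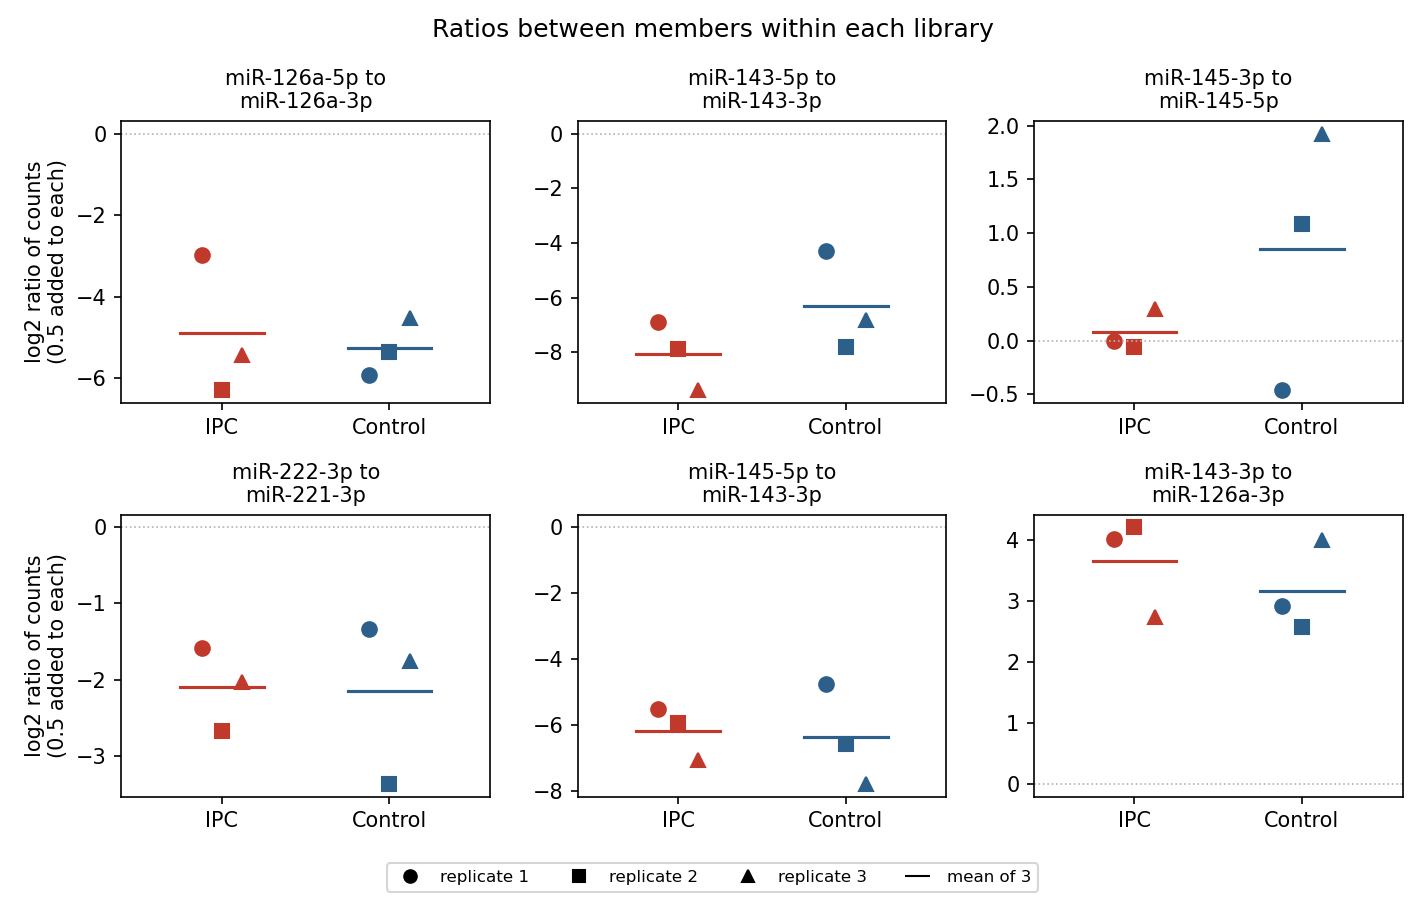
Log2 ratio of counts of 6 pairs of members in each library (0.5 added to each count), IPC left of control, with a bar at the mean of 3 and a dotted line at equality. miR-145-3p to miR-145-5p lies near 0 in the IPC libraries, miR-143-5p to miR-143-3p is highest in control replicate 1 at -4.31, and no pair separates the groups.

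Other miRNAs known in endothelium or smooth muscle were taken as a list of 24, of which 22 had counts and 15 passed the abundance filter. The platelet list also holds 2 of the 24, miR-21-5p and miR-24-3p, and the leukocyte list holds 1, miR-155-5p. In limma 0 of the 15 passed the adjusted threshold (smallest adjusted p = 0.35), and at an unadjusted p below 0.05, 2 were higher and 0 lower after IPC, against 8.85% higher and 1.77% lower of all tested. The log2 fold change was positive in 14 of 15, against 62.8% of all tested, with a median of 0.74 against 0.38 over all tested. Some of the 15 belong to shared clusters, so they are not 15 separate results. With no abundance filter the log2 fold change was positive in 18 of 22, against 306 of all 480, with medians of 0.59 and 0.28. Under median-of-ratios and upper-quartile scaling it was positive in 13 of 15, against 122 and 121 of all 226 tested. The medians under these 2 scalings were 0.48 and 0.46, against 0.19 and 0.17 over all tested. Without control replicate 3 the median was 0.28, against 0.19 over all tested, and without control replicate 2 it was 1.04, against 0.45 over all tested. miR-23a-3p, of a cluster known in endothelium, had 1401 ± 468 normalised counts in IPC exosomes and 488 ± 255 in control exosomes (SD, n = 3 each; log2 fold change 1.64, SE 0.69). miR-503-5p, known for restraining endothelial growth, had 60, 56 and 48 counts in the IPC libraries (replicates 1, 2 and 3), against 0, 24 and 0 in control replicates 1, 2 and 3. miR-92a-3p, known for restraining angiogenesis, and miR-10a-5p, of a family known in endothelium, had estimates of 1.13 and 1.19 on the log2 scale (SE 0.70 and 0.74), at unadjusted p = 0.133 and 0.135 in limma.

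The tested miRNAs whose levels over the 6 libraries were most like those of a member are given by Pearson's r of log2(value + 1), as a description of libraries that also differ in depth and composition. For miR-126a-3p these were let-7f-5p (r = 0.94), miR-10b-5p (0.91) and miR-142-3p (0.91). For miR-143-3p they were miR-99a-5p (0.93), miR-10a-5p (0.92) and miR-100-5p (0.89). For miR-145-5p they were miR-107-3p (0.96), miR-146a-5p (0.93) and miR-532-5p (0.92). miR-221-3p was most like miR-375-3p (0.90), miR-378b (0.89) and miR-378a-3p (0.87), and miR-222-3p most like miR-128-3p (0.96), miR-28-3p (0.95) and miR-874-3p (0.95). The 3 miRNAs most like each of these 5 members were 15 different miRNAs. miR-126a-5p, miR-143-5p and miR-145-3p were not searched.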

How the data were processed

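Per the labels' protocols, small RNA libraries were made with the NEBNext kit from Trizol RNA of serum exosomes and sequenced as single-end reads on an Illumina HiSeq. FastQC, BWA, edgeR and the build rn6 are named, with no roles, in the submitters' processing notes. Settings for trimming, alignment and counting are not given in those notes. Per the file headers, the deposited table holds a normalised signal per miRNA and library. It also holds a log2 fold change and a p-value without adjustment, both computed by the authors.

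The values have the form of counts quantile-adjusted to a common library size (265919) under a common dispersion of 0.503, worked out from the values alone. Inverting this within each group gave whole counts (tolerance 0.01) for 4578 of 4578 values. Applying the adjustment to them returned the deposited numbers with a relative error of no more than 1.6e-08.

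The test was limma 3.58.1 (R 4.3.3, trended, robust) on log2(value + 1), with Benjamini-Hochberg adjustment over 226 miRNAs. A miRNA was kept with 34.9 CPM or more in 3 or more libraries, which is 10 counts in a library of median effective size, and with a sum of 15 or more. Fold changes are on that scale, where changes of scarce miRNAs come out too small. Ratios within libraries (0.5 added) and shares were compared by exact permutation over 20 assignments. Alternatives were other pseudocounts, filters and scalings, limma-voom, each library left out and the replicate number as a block. Python 3.11.15, scipy 1.17.1 and matplotlib 3.10.9 were used. Count intervals cover counting error only, since reads carry no molecular identifiers. No replicates of a group were alike within sampling noise (chi-square per degree of freedom 131 to 611), so each was counted. Technical differences between libraries can exceed that noise too, so this cannot show that the samples came from separate rats.

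The members and lists were chosen with earlier results of these data known. Named besides the 8 members were, for 5 of them, the 3 tested miRNAs with the highest Pearson r. Of the other vessel-wall list, the 4 with the smallest p and the 5p arms of miR-221 and miR-222 were named. miR-126b, miR-130b and miR-214-5p were named after their values were seen.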

Additional observations from a re-analysis of the deposited data

How the results depend on the processing

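No member passed the adjusted threshold under any alternative run, and limma's smallest adjusted p among the members was 0.19, without control replicate 2. Over all tested miRNAs the calls at an adjusted p below 0.05 were 0 higher and 0 lower. They were 3 higher with no abundance filter (480 miRNAs) and 2 higher with a replicate block. With 1 library left out they were 0 to 29 higher and 0 to 9 lower, the upper values without control replicate 2; the cause was not tested. Samples of the same replicate number had correlations of deviations of 0.13, -0.18 and -0.51 for numbers 1, 2 and 3. Those of unlike numbers ran from -0.42 to 0.64. With 3 libraries in each group these values cannot settle whether the numbers pair the samples. No member passed with the block.

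Signs that turned were those of miR-126a-3p (-0.076 and -0.096), miR-222-3p (-0.22 and -0.24) and miR-145-3p (-0.13 and -0.15) under median-of-ratios and upper-quartile scaling, and of miR-222-3p (-0.0011) with a pseudocount of 5. With 1 library left out, log2 fold changes ran from -0.28 to 0.80 for miR-126a-3p, -0.26 to 0.24 for miR-221-3p, -0.69 to 0.44 for miR-222-3p and -0.38 to 0.45 for miR-145-3p. Differences in log2 ratio ran from -0.59 to 1.06 for miR-126a-5p to miR-126a-3p, -0.55 to 0.47 for miR-222-3p to miR-221-3p and -0.51 to 1.01 for miR-145-5p to miR-143-3p. Differences in percent of library counts ran from -0.042 to 0.096 for miR-126a-3p, -0.010 to 0.0083 for miR-221-3p, -0.0054 to 0.0019 for miR-222-3p and -0.0070 to 0.011 for miR-145-3p. The other members, ratios and shares kept their sign under every alternative run. The stricter filter left out miR-126a-5p. Shallow controls limit miR-126a-5p (16 control counts), miR-143-5p (60), miR-145-5p (61) and miR-222-3p (66).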

Other observations

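Levels of some members moved together or apart over the 6 libraries without regard to group, and these values are given as a description. Among pairs of endothelial members, Pearson's r on the log2(value + 1) scale ran from -0.82 for miR-126a-3p and miR-222-3p to 0.55 for miR-221-3p and miR-222-3p. The arms of miR-126a had r = 0.0040, those of miR-143 -0.30 and those of miR-145 0.57. The neighbours miR-221-3p and miR-222-3p had r = 0.55, and miR-143-3p had r = 0.31 with miR-145-5p and 0.68 with miR-145-3p.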
